A study of Drosophila melanogaster with 13 samples.

Results

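Lola.N peaks found in one replicate only are the regions that were called as contacted by the transcription factor isoform Lola.N in a single Targeted DamID replicate. The peak lists of replicates N1 and N2 were compared base by base. A peak belonged to the N1-only set when it shared no base with any N2 peak, and to the N2-only set when it shared no base with any N1 peak. Of 4676 N1 peaks 1368 were N1-only (29.3%), and of 4544 N2 peaks 1232 were N2-only (27.1%), which made 2600 of 9220 peaks in all. The other 3308 N1 peaks and 3312 N2 peaks shared at least 1 base with a peak of the other list and are called overlapping peaks here.

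Lola is a family of BTB zinc finger transcription factors made from a single gene by alternative splicing, and its isoforms share the BTB end and differ in their zinc fingers. In the optic lobe, where the fly brain processes vision, Lola is known for keeping young neurons from returning to a neural stem cell (neuroblast) state. Targeted DamID expresses a low level of a protein fused to the bacterial methylase Dam in chosen cells. Dam marks GATC sites near the places the fusion protein touches, and a Dam-only sample gives the marking expected from accessible DNA alone. A DamID peak is built from whole fragments between GATC sites, so it gives a stretch of DNA and no exact binding site.

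The Lola.N fusion was driven by ey16F10-GAL4 in brains of L3 *Drosophila melanogaster* larvae, and both Lola.N replicates were called by the authors against Dam alone. The same series holds RNA counts of clone cells isolated by flow cytometry from optic lobes of wandering L3 larvae. The clones were WT or carried the mutant allele lola[E76] or nerfin-1[159], and each genotype had 3 libraries. In the labels of the counts, WT and lola[E76] share an ending that nerfin-1[159] lacks. WT is thus labelled as the match of lola[E76] and not of nerfin-1[159]. Sorts of different days were pooled into each RNA library, so p-values rest on the spread among pooled libraries. The RNA was not used to choose the peaks, and lola[E76] against WT is the comparison tested here, with nerfin-1[159] values given as levels only. DamID came from driver-positive cells of the brain and RNA from sorted clones, and how far these cells overlap was not tested.

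Each peak carries a score and a false discovery rate (FDR), and both are the authors' own values. Both enter the choice of members, because a peak had to pass the FDR threshold of 0.01 in a list to exist there. The members were thus selected on called peaks, which score and FDR decide. Score, FDR, width and distance are therefore given as a description with no test. The sources used here do not give the scale of the score, and scores are compared within a list only. In the 1166 peaks with the same borders in both lists the median score was 3.135 in N1 and 2.415 in N2, and the N1 score was the higher one in 1095. Across these peaks, which share fragments and pass the threshold in both lists, Pearson's r of the scores was 0.916.

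One-replicate peaks were low-scoring members of their lists. The median score was 1.78 for N1-only peaks, with quartiles of 1.45 and 2.31, against 2.80 for overlapping N1 peaks. It was 1.285 for N2-only peaks, with quartiles of 1.00 and 1.66, against 2.14 for overlapping N2 peaks. The 2 populations were not separate, since 153 N1-only peaks (11.2%) and 121 N2-only peaks (9.82%) scored at or above the median of the overlapping peaks of their list. The median FDR was 0.00116 in N1-only peaks against 7.08e-06 in overlapping N1 peaks. It was 0.000965 in N2-only peaks against 4.94e-06 in overlapping N2 peaks. An FDR over 0.001 was held by 54.1% of N1-only and 48.7% of N2-only peaks, and by 20.3% and 19.4% of the overlapping peaks of the same lists.

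When each list was cut into 5 equal parts by score, the share of one-replicate peaks fell at every step. In N1 it was 58.5% in the lowest part, which covered scores of 0.48 to 1.63, then 41.9%, 28.4% and 12.5%, and 4.81% in the highest part. In N2 the shares were 58.2%, 41.7%, 21.7%, 10.2% and 3.74%, so both lists gave nearly the same curve on their own scales. By FDR the shares in N1 were 14.1% among the lowest FDRs, 12.3% in the next part and 59.0% among the highest, and in N2 they were 14.6%, 13.9% and 50.6%. Width gave no such order. One-replicate peaks made up 26.1% to 32.5% of each width part in N1 and 24.1% to 30.7% in N2, and their median widths were 844.5 and 865.5 bp against 792 and 822.5 bp in overlapping peaks. As a result the share of covered bases was close to the share of peaks: N1-only peaks held 1434 of 4842 kb (29.6%) and N2-only peaks 1404 of 4940 kb (28.4%).

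**Figure D1:**
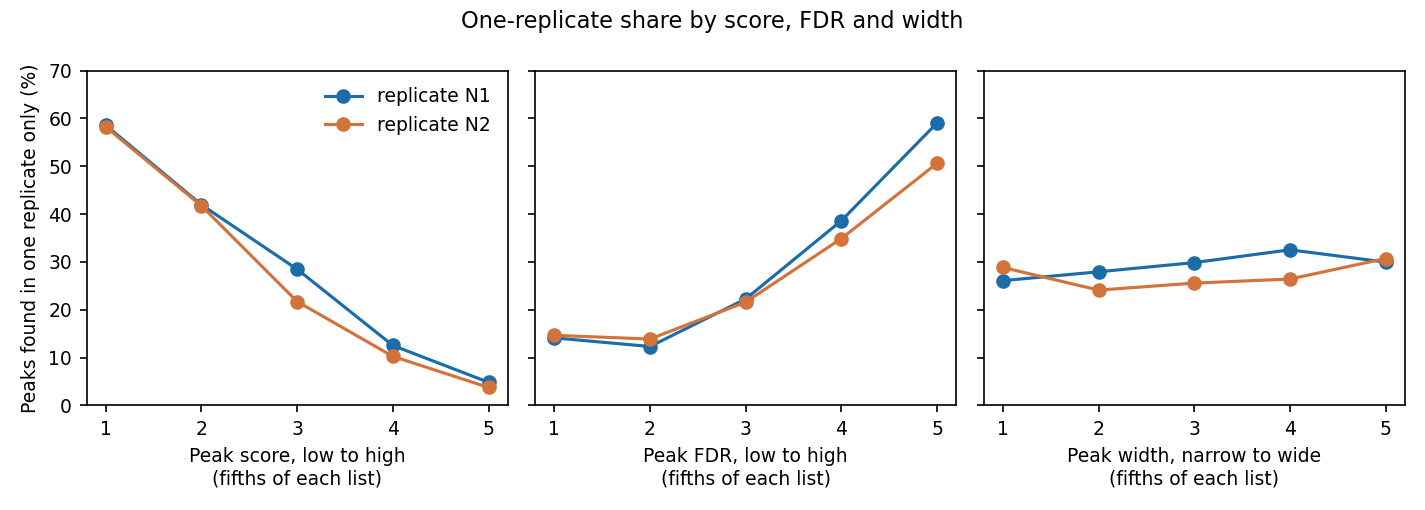
Share of the peaks of each list (percent, vertical axis) that had no overlapping peak in the other replicate, for 5 equal parts of the list by score, FDR and width (horizontal axes), with N1 in blue and N2 in orange. The share falls from 58.5% to 4.81% (N1) and from 58.2% to 3.74% (N2) with rising score, is highest in the last FDR part after a slightly lower value in the second than in the first, and stays between 24.1% and 32.5% across widths.

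The distance to the nearest peak of the other replicate ranged from a few bp to over 20 kb, and close peaks differed from the rest. The median gap was 5956 bp for N1-only and 4420.5 bp for N2-only peaks. A gap under 1 kb was found for 253 N1-only peaks (18.5%) and 264 N2-only peaks (21.4%), and a gap of 20 kb or more for 312 (22.8%) and 208 (16.9%). Peaks with a gap under 1 kb had a median FDR of 4.12e-07 in the N1-only set and 5.47e-08 in the N2-only set, below the medians of overlapping peaks. In the bands further out the median FDR lay between 0.00125 and 0.00192 for N1-only peaks and between 0.000965 and 0.00191 for N2-only peaks. Scores followed the same split, with a median of 2.19 under 1 kb against 1.69 to 1.75 further out in the N1-only set, and 1.565 against 1.155 to 1.30 in the N2-only set.

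Many close peaks also lay beside overlapping peaks of their own list. Within 1 kb of such a peak were 149 of the 253 close N1-only peaks (58.9%) and 167 of the 264 close N2-only peaks (63.3%). An overlapping peak touches a peak of the other list by definition, so a short gap and such a neighbour go together by geometry. Some close peaks were neighbours of each other across the lists: 249 pairs of an N1-only and an N2-only peak were each other's nearest peak of the other list, and 83 of these pairs were within 1 kb. In the band of 20 kb or more, 22 of 312 N1-only and 7 of 208 N2-only peaks reached the median score of the overlapping peaks of their list.

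The 1-base rule put some peaks on either side by a few bases. Just outside an overlap, the shortest gap was 3 bp for an N1-only and 5 bp for an N2-only peak, and 39 peaks of each set had a gap under 100 bp. Just inside, 42 N1 peaks and 49 N2 peaks counted as overlapping through exactly 1 shared base. The N1-only peak at 3L:16744462-16745412 (score 4.54) ended 3 bp from an N2 peak of score 3.54, between genes. The N2-only peak at 3L:22944094-22945716 (score 3.05), over the gene Mes2, was 5 bp from an N1 peak of score 5.05. At X:387448-387769 (N2-only, score 1.48) and X:387779-388347 (N1-only, score 1.83), both inside the gene CG32816, a pair of one-replicate peaks was 9 bp apart.

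**Figure D2:**
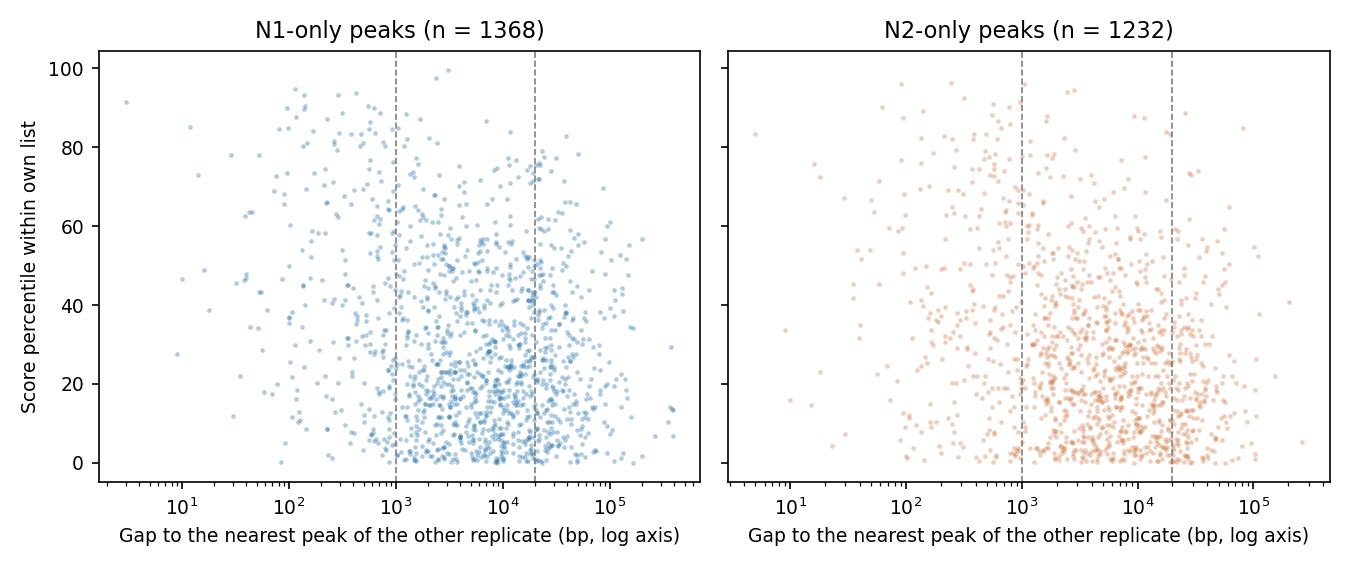
Each point is a one-replicate peak (left, 1368 N1-only; right, 1232 N2-only), placed by its gap to the nearest peak of the other replicate (bp, log axis) and by the percentile of its score within its own list. Dashed lines mark 1 kb and 20 kb; high percentiles are denser left of 1 kb, where 73 N1-only and 69 N2-only peaks reach the median score of the overlapping peaks of their list.

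One-replicate peaks occurred on every chromosome and arm that carried peaks. On 2L, 2R, 3L, 3R and X they made up 27.1% to 31.3% of N1 peaks and 25.8% to 30.5% of N2 peaks, with 2L the highest in both lists. The 95% exact (Clopper-Pearson) intervals cover counting error only and take each peak as independent. Many one-replicate peaks are neighbours of each other, so no comparison of arms or lists is drawn from these intervals. In N1 the intervals were 28.0% to 34.7% for 2L and 24.3% to 30.0% for 3L. On chromosome 4 the share was 41.3% in N1 (19 of 46 peaks, interval 27.0% to 56.8%) and 23.5% in N2 (8 of 34 peaks, interval 10.7% to 41.2%). On Y it was 52.6% in N1 (10 of 19 peaks, interval 28.9% to 75.6%) and 18.2% in N2 (2 of 11 peaks, interval 2.28% to 51.8%). Of the 10 N1-only peaks on Y, 7 were neighbours in a row with no overlapping peak between them.

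**Figure D3:**
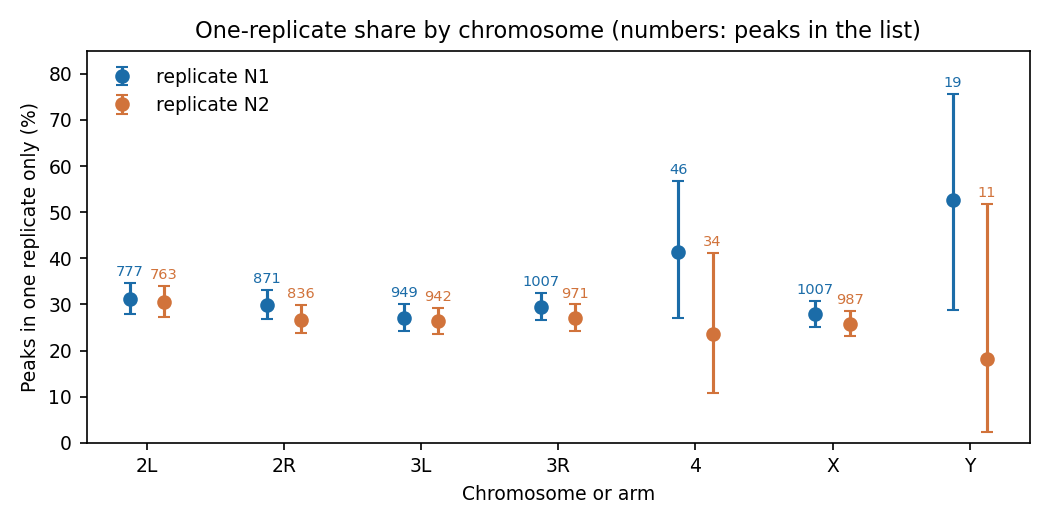
Share of one-replicate peaks (percent, vertical axis) among the peaks of each list on each chromosome or arm, with 95% exact (Clopper-Pearson) intervals as bars and the number of peaks above each point, N1 in blue and N2 in orange. The large arms lie between 25.8% and 31.3%, while chromosome 4 and Y have few peaks and wide intervals.

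About as many one-replicate peaks stood alone between overlapping peaks as lay in runs. A run here is a series of neighbouring peaks of one list with no overlapping peak of that list among them. Lone peaks numbered 626 of 1368 in N1 and 646 of 1232 in N2. The longest runs held 7 peaks. Genes named for a run lie between its first and last peak, and a peak need not touch them. In N1 these were 3R:185176-250778, where the gene table lists no gene, and Y:616785-1285136, which holds the male fertility gene kl-2 and copies of the Suppressor of Stellate repeats. In N2 they were 2R:14876023-15040364 and X:13622328-13885123. The 2R run spanned the adhesion gene hbs and a cluster of Cyp6a cytochrome P450 genes, and the X run spanned jub and mamo. The polarity kinase gene aPKC, also in the 2R stretch, had no peak within 1 kb. A run of 6 N1-only peaks at 3R:11223158-11283150 spanned the long non-coding RNA gene lncRNA:cherub. Another run of 6, at 2R:13886204-13954997, spanned shot, a linker of actin and microtubules, and AGO1, the Argonaute of the microRNA pathway.

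Peaks were assigned to genes by the position of the gene body and 1 kb on either side. Of N1-only peaks 80.4% overlapped a gene, near the 79.6% of overlapping N1 peaks, while of N2-only peaks 86.0% did, against 79.3% of overlapping N2 peaks. Within 1 kb of a gene end lay 49.6% of N1-only and 52.4% of N2-only peaks, against 51.5% and 52.0% of overlapping peaks. The gene at a one-replicate peak often had an overlapping peak too: this held for 558 N1-only peaks (40.8%) and 577 N2-only peaks (46.8%). Another 595 N1-only (43.5%) and 528 N2-only peaks (42.9%) touched only genes without overlapping peaks, and 215 and 127 had no gene within 1 kb.

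The highest-scoring N1-only peaks were a neighbouring pair at w, the gene of an eye pigment transporter and the usual marker of fly transgenes, which lies within the adhesion gene kirre. The peak at X:2792479-2793144 scored 5.81, above 99.4% of the N1 list, and X:2791195-2792339 scored 5.26. Both had an FDR of 8.19e-14 and lay 3053 and 2383 bp from the nearest N2 peaks, which scored 3.08 and 2.24. No other N1-only peak scored above 4.86.

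Strong N1-only peaks at a neuron and a neuroblast gene lay close to N2 peaks. The peak at X:523668-525403 (score 4.86, FDR 4.22e-32) lay over arg, the arginase gene, within 1 kb of elav, which encodes an RNA-binding protein used as the standard neuron marker. It was 115 bp from an N2 peak of score 5.46. The peak at 2R:8231528-8232329 (score 4.70, FDR 1.26e-50) lay at dpn, the bHLH repressor that marks neuroblasts, and was 139 bp from an N2 peak of score 4.32. The other N1-only peaks of the top 8 were at 2R:10076397-10076677 (4.75), 3L:2454-3675 (4.71) and X:5887691-5889168 (4.48), with gaps of 420, 289 and 140 bp, besides the 3L peak with the 3 bp gap.

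Among N2-only peaks the highest score was 3.99, at 3R:21827494-21828631 between genes, 245 bp from an N1 peak of score 4.31. The peak at 3R:25632783-25633158 (3.94) was 91 bp from an N1 peak of score 5.69 and had an FDR of 1.49e-65. Others lay over ptc, the receptor of Hedgehog (2R:8648308-8650492, score 3.93), Mid1 (2R:24735236-24735903, 3.81), the lipocalin gene Karl (X:11786809-11787828, 3.75) and ham, a zinc finger factor of neuronal fate (2L:18775439-18776168, 3.64). The last of the top 8 were beside lncRNA:CR45388 (3L:18851861-18852554, 3.56) and over phyl, an adaptor for protein degradation in neural precursors (2R:14430736-14431975, 3.53). Of these 8 peaks, 5 had a gap under 1 kb. The peak at Karl had the weakest FDR of the 8, 0.00115.

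The widest members ranged from low to middle in score. The widest N1-only peak, 5787 bp at 3L:14001567-14007353 over upSET, a SET domain chromatin gene, and Nprl3, scored 1.94, above 31.7% of the N1 list, and was 27222 bp from any N2 peak. The N1-only peak over Snoo, a Ski family gene of TGF-beta signalling, was 5073 bp wide (2L:7900830-7905902) and scored 1.02. The widest N2-only peak, 7272 bp at 2R:11595336-11602607 over the chromatin gene tou, scored 2.02, above 56.3% of the N2 list, and was 48177 bp from any N1 peak. At 3R:11274651-11280412 an N2-only peak of 5762 bp over lncRNA:CR31386 scored 0.81, in the stretch where N1 had its run of 6.

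A few peaks far from the other list scored well. These were picked as the 5 highest scores of each set with a gap of 20 kb or more, after values had been seen. In N1 they lay at 2L:20165452-20165999 (3.87) and 3L:12681322-12681717 (3.65), both between genes, and over shakB, a gap junction innexin (X:20875247-20875676, 3.62), CadN, N-cadherin (2L:17746446-17748379, 3.58), and Trim9, a ubiquitin ligase of axon guidance (2L:10607600-10609728, 3.57). In N2, 4 of them lay over sick (2L:19809265-19810529, 3.37), tutl, an immunoglobulin family protein (2L:4316407-4316813, 2.60), the glutathione synthase gene Gss1 (X:17898300-17898656, 2.58) and CG43163 (3L:8494300-8494898, 2.56). In the order given, the FDRs of the N1 peaks were 0.00462, 0.00101, 0.000212, 0.000212 and 0.00542. Those of the N2 peaks were 0.000685, 0.00728, 0.00063 and 0.00396. Overlapping peaks had a median FDR of 7.08e-06 in N1 and 4.94e-06 in N2.

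RNA at the genes under these regions was read next. Each RNA library held 3465601 to 5200223 counts, in which 3 counts equal 0.577 to 0.866 CPM (counts scaled to library size). Called means a Benjamini-Hochberg adjusted p under 0.05 by the quasi-likelihood test of edgeR over all 7451 genes tested, and log2 differences are lola[E76] minus WT with their SE. Of all genes tested, 6.5% were called, 3.58% higher and 2.91% lower in lola[E76] clones, and in 24.8% the libraries of both genotypes did not overlap. The lola gene itself had 1942, 1752 and 1596 CPM in the WT libraries and 2136, 2087 and 1729 CPM in the lola[E76] libraries, so the groups overlapped. The sources used here do not say which part of the gene the allele changes, so the 3′ tags counted do not check the genotype. Since lola lies on 2R, effects of variants linked to the allele and of losing Lola cannot be told apart for genes on that arm. In these sorted clones fewer cells of a type and less RNA per cell cannot be told apart.

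The gene w, with the strongest N1-only peaks, had 51.9, 32.9 and 37.7 CPM in the WT libraries and 42.8, 61.0 and 37.3 CPM in the lola[E76] libraries. The libraries overlapped, and w was not called (0.21 ± 0.24, edgeR adjusted p = 0.732). Its host kirre had 83.5, 107.5 and 98.3 CPM in the WT libraries and 178.8, 217.8 and 185.2 CPM in the lola[E76] libraries. All lola[E76] libraries lay above all WT libraries, and kirre rose by 1.01 ± 0.17 (edgeR adjusted p = 0.000661), whichever library was left out; kirre also held 9 overlapping peaks in each list. Mid1, at an N2-only peak and an overlapping one, had 189.6, 197.2 and 188.7 CPM in the WT libraries and 330.8, 274.1 and 282.4 CPM in the lola[E76] libraries. It rose by 0.62 ± 0.14 (edgeR adjusted p = 0.00713). Other genes under top-scoring peaks were not called. These included ham (0.04 ± 0.29, edgeR adjusted p = 0.966) and phyl (-0.02 ± 0.18, edgeR adjusted p = 0.975) at N2-only peaks. At an N1-only peak, arg was not called either (3.00 ± 1.07, edgeR adjusted p = 0.112).

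Among the genes at the widest and the most distant peaks, those called were tou, shakB, Snoo and CadN, beside 6.5% of all genes tested. No share of calls was worked out for these few genes, so their calls are not weighed against that 6.5%. The WT libraries had 544.3, 476.9 and 473.2 CPM of tou and the lola[E76] libraries 309.0, 415.4 and 361.5 CPM, without overlap. The difference was -0.46 ± 0.12 (edgeR adjusted p = 0.0247), and tou lost its call without WT replicates 1 or 2 or lola[E76] replicates 1 or 3. The others were shakB (0.92 ± 0.24), Snoo (0.53 ± 0.13) and CadN (0.36 ± 0.10), with edgeR adjusted p-values of 0.0226, 0.0181 and 0.0419. Each of the 3 has overlapping peaks as well. Each lost its call in at least 4 of the fits that left out a library: without WT replicates 1, 2 or 3 or lola[E76] replicates 1 or 2 for shakB, without WT replicates 2 or 3 or lola[E76] replicates 2 or 3 for Snoo, and without WT or lola[E76] replicates 1, 2 or 3 or nerfin-1[159] replicate 3 for CadN. Of the genes named above at these peaks, Trim9, sick, tutl, Gss1, CG43163, upSET, Nprl3 and lncRNA:CR31386 were not called.

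The 8 genes of neuroblasts, timing and neuronal fate that were followed throughout all had overlapping peaks, and lola, dpn, elav and pros had one-replicate peaks as well. At lola, N1-only peaks lay at 2R:10520603-10521228 (score 2.58) and 2R:10533351-10533738 (score 4.30), and 6 peaks overlapped in each list. At pros, the factor that ends neuroblast divisions, an N2-only peak of 2694 bp scored 0.75 (3R:11392045-11394738), against 9 overlapping peaks. The gene elav had a second N1-only peak at X:516957-518674 (score 1.40). No one-replicate peak lay at nerfin-1, chinmo, Imp or Syp. The neuroblast gene dpn had 1.35, 10.4 and 11.6 CPM in the WT libraries and 14.8, 11.9 and 17.4 CPM in the lola[E76] libraries. These values do not overlap, but the difference of 0.88 ± 0.46 was not called (edgeR adjusted p = 0.317), and WT replicate 1 held 5 counts.

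All genes were then classed by their peaks. Of 17807 genes in the gene table, 1025 had N1-only peaks and no other, 924 had N2-only peaks and no other, and 157 had both kinds but no overlapping peak. At least 1 overlapping peak was held by 3633 genes, of which 945 also carried a one-replicate peak, and 12068 had no peak. Most genes of the one-replicate classes rested on 1 peak: this held for 982 of the N1-only and 873 of the N2-only class. The most in the N1-only class were 3 peaks at ATP8A, a phospholipid flippase, and in the N2-only class 3 peaks at l(2)gl, a cell polarity tumour suppressor, and at CG4619. The gene shot had 6 one-replicate peaks from both lists and no overlapping one.

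With all peaks counted, the N1-only and N2-only classes were called at about the rate of all genes. In the N1-only class 31 of 556 tested genes were called in edgeR's test (5.58%), against 6.5% of all genes tested. Of these, 11 were higher (1.98%, against 3.58% of all genes) and 20 lower (3.60%, against 2.91%) in lola[E76] clones. The N2-only class had 34 called of 476 tested (7.14%), 17 higher and 17 lower (3.57% each way). These shares lie near the background and are no result about the classes. The median log2 difference was -0.04 in the N1-only and 0.02 in the N2-only class, against 0.00 over all genes that matched the gene table.

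The shares were higher when only peaks at or above the median score of their list were counted. In edgeR's test 36 of 323 tested N1-only genes (11.1%) and 36 of 247 tested N2-only genes (14.6%, with 9.31% higher) were then called, against 6.5% of all genes tested. Partners under the median were dropped as well, so most of these genes had an overlapping peak when all peaks were counted: 210 of the 323 and 180 of the 247, of which 29 (13.8%) and 25 (13.9%) were called. The genes that were in the same class with all peaks counted, a split made after values had been seen, differed between the lists. Of 98 such N1-only genes 4 were called (4.08%), and of 58 such N2-only genes 11 were called (19.0%). No test of the difference between these shares was made.

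The counts depended on single libraries. In the N1-only class 19 genes were called without WT replicate 1 and 18 without WT replicate 2, and in the N2-only class 21 without WT replicate 1, 21 without WT replicate 2 and 20 without lola[E76] replicate 2. The number called over all genes fell too, from 484 to 315 without WT replicate 1 and to 315 without WT replicate 2. The split by direction in the N1-only class also moved, with 18 higher calls by DESeq2 and 18 with no filter on low counts.

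Among tested genes with an overlapping peak 238 of 2182 were called (10.9%), and among genes with no peak 167 of 4130 (4.04%). The small class with both N1-only and N2-only peaks had 11 called of 98 (11.2%), which became 7 whichever WT library was left out, and 7 without lola[E76] replicate 2. Median gene length had the same order as these shares, and the median WT level did not. The median length of tested genes was 2.56 kb with no peak, 3.30 kb for N1-only, 3.84 kb for N2-only, 4.93 kb with an overlapping peak and 5.66 kb with both one-replicate kinds. Their median WT level was 15.9, 20.03, 17.6, 24.0 and 19.4 CPM in that order. Among genes with an overlapping peak, 96 of 698 that also had a one-replicate peak were called (13.8%), with a median length of 14.8 kb. Without one, 142 of 1484 were called (9.57%), with a median length of 3.58 kb. The part of length and level in these differences was not tested.

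**Figure D4:**
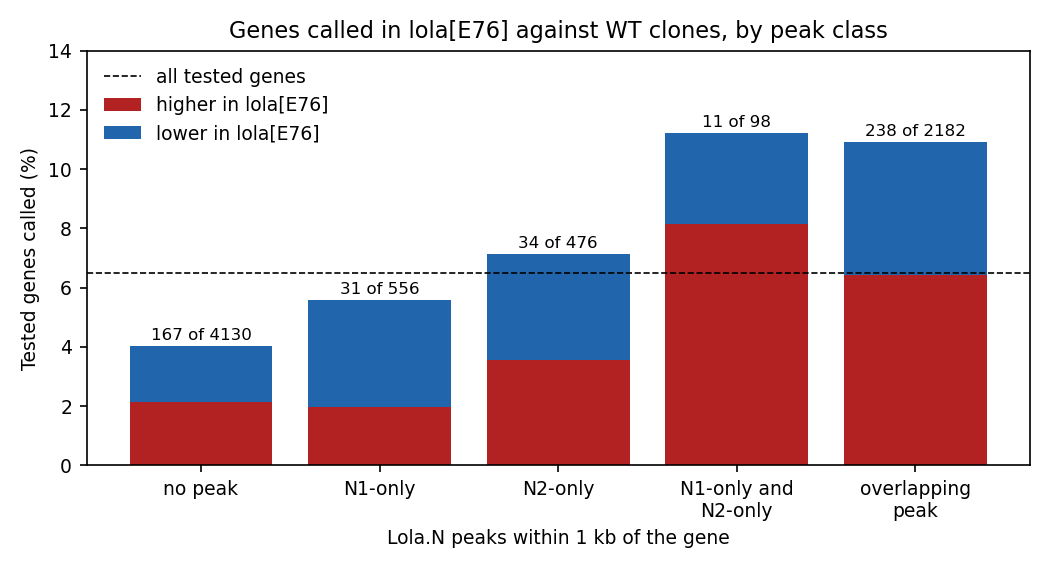
Share of tested genes called in lola[E76] against WT clones (percent, vertical axis; edgeR's quasi-likelihood test) by the Lola.N peaks within 1 kb of the gene, split into higher (red) and lower (blue), with called and tested genes above each bar. The dashed line is the 6.5% of all tested genes; the N1-only (31 of 556) and N2-only (34 of 476) bars lie on either side of it.

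Called genes were also counted by arm. On 2R, the arm of lola, were 13 of the 34 called N2-only genes (38.2%) and 2 of the 31 called N1-only genes (6.45%). Tested genes of these classes were on 2R in 21.2% and 18.2% of cases, and over all genes 24.5% of called and 19.6% of tested genes were on that arm. No test of the difference between the classes was made, and the limit on linked variants given for 2R applies.

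The genes named next had the largest log2 differences in each class and direction among called genes with separate libraries and enough counts, and their peaks were of one replicate only. Among those that fell in the N1-only class were a calcium channel gene and a GABA receptor gene. Ca-alpha1D, the L-type voltage-gated calcium channel, had 30.5, 23.1 and 19.5 CPM in the WT libraries and 0, 2.15 and 4.69 CPM in the lola[E76] libraries. Every lola[E76] library was far below every WT library, and the difference was -3.38 ± 0.63 (edgeR adjusted p = 0.00198; -4.41 without lola[E76] replicate 3). Its N1-only peak at 2L:16166444-16168273 scored 1.39 and was 87713 bp from the nearest N2 peak.

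GABA-B-R1, a subunit of the metabotropic GABA receptor, had 59.96, 46.2 and 56.7 CPM in the WT libraries and 6.53, 5.60 and 11.8 CPM in the lola[E76] libraries. The groups lay far apart, and the gene fell by 2.76 ± 0.32 on the log2 scale (edgeR adjusted p = 1.67e-05). Its peak at 2L:15027421-15028061 scored 1.13, had an FDR of 0.00955 and was 72145 bp from any N2 peak. In nerfin-1[159] clones GABA-B-R1 was at 23.2 ± 5.55 CPM and Ca-alpha1D at 12.3 ± 4.04 CPM (SD, n = 3), between the other genotypes.

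The transcription factor gene kn (collier), which specifies neuron subtypes, had 134.5, 133.1 and 125.4 CPM in the WT libraries and 48.2, 44.4 and 60.8 CPM in the lola[E76] libraries. It fell by 1.36 ± 0.20 on the log2 scale (edgeR adjusted p = 0.000193). Its single peak, N1-only, was 4447 bp wide (2R:14787422-14791868) and scored 1.00, above 1.14% of the N1 list. In nerfin-1[159] clones kn was at 127 ± 38.1 CPM, near the WT level. These 3 genes kept their calls whichever library was left out and under every alternative.

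The other N1-only genes lost their calls in some fits. The lower ones were lncRNA:CR45223 (-2.20 ± 0.51), CG11085 (-1.82 ± 0.49) and CG2698 (-1.54 ± 0.44), with edgeR adjusted p-values of 0.0105, 0.0294 and 0.0388. The call of lncRNA:CR45223 was lost without WT replicate 2 only. CG11085 lost its call without WT replicates 1 or 2 or lola[E76] replicates 1 or 2 and by DESeq2, and CG2698 without WT replicates 1, 2 or 3, lola[E76] replicates 1 or 2 or nerfin-1[159] replicates 2 or 3. Their peaks scored 1.25, 2.17 and 1.79, and the gaps were 8231, 17335 and 1625 bp.

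None of the 6 named N1-only rises kept its call whichever library was left out. The Golgi mannosidase alpha-Man-IIb had 20.3, 6.04 and 23.1 CPM in the WT libraries and 35.1, 67.0 and 42 CPM in the lola[E76] libraries. The ranges did not meet, the difference was 1.55 ± 0.41 (edgeR adjusted p = 0.0256), and the call was lost without replicate 2 of either genotype. The TGF-beta family ligand mav had 13.8, 9.58 and 11.2 CPM in the WT libraries and 15.2, 38.4 and 37.3 CPM in the lola[E76] libraries. Replicate 1 of lola[E76] lay just above WT, and the call (1.40 ± 0.36, edgeR adjusted p = 0.021) was lost without WT replicates 2 or 3 or lola[E76] replicates 2 or 3.

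The remaining 4 named rises of the N1-only class were smaller. They were Idh3g, a subunit of mitochondrial isocitrate dehydrogenase (0.98 ± 0.25), EMC2A of the ER membrane complex (0.96 ± 0.27), the proton pump subunit Vha68-1 (0.74 ± 0.21) and Tom40, the pore of the mitochondrial import channel (0.59 ± 0.17). Their adjusted p-values in edgeR's test were between 0.0186 and 0.0398. Idh3g lost its call without WT replicates 1 or 3 or lola[E76] replicate 1. Vha68-1 lost it without WT or lola[E76] replicates 1, 2 or 3 and with no filter on low counts, Tom40 without WT replicates 1 or 3, lola[E76] replicates 2 or 3 or nerfin-1[159] replicate 3, and EMC2A in every fit that left out a library except WT replicate 3 and lola[E76] replicate 1. The peaks of all 6 higher N1-only genes scored 1.22 to 2.43 and were 7410 to 29056 bp from the nearest N2 peak.

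Among genes of the N2-only class that rose, GstD1, a glutathione transferase induced by oxidative stress, had 14.6, 21.9 and 26.5 CPM in the WT libraries and 86.4, 78.0 and 63.9 CPM in the lola[E76] libraries. All lola[E76] libraries were above all WT libraries, by 1.85 ± 0.27 on the log2 scale (edgeR adjusted p = 0.00018). Its peak at 3R:12368291-12369650 scored 1.97 and was 634 bp from an overlapping N1 peak of score 2.92. In nerfin-1[159] clones GstD1 was at 52.0 ± 16.4 CPM (SD, n = 3).

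Mef2, a MADS box factor of muscle that is also made in some brain neurons, had 11.6, 21.7 and 12.1 CPM in the WT libraries and 38.0, 53.9 and 65.9 CPM in the lola[E76] libraries. The libraries were apart, and Mef2 rose by 1.79 ± 0.29 (edgeR adjusted p = 0.000567). Its peak at 2R:9957957-9959348 scored 2.09, above 59.2% of the N2 list, and was 20993 bp from any N1 peak.

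The receptor gene ptc, whose N2-only peak was among the strongest of the set, had 79.1, 88.1 and 78.6 CPM in the WT libraries and 172.1, 191.1 and 203.1 CPM in the lola[E76] libraries. The ranges were well apart, and ptc rose by 1.20 ± 0.15 (edgeR adjusted p = 4.06e-05). It had no other peak within 1 kb. The nearest N1 peak, an overlapping one of score 5.20, was 1050 bp from the N2-only peak, as was an overlapping N2 peak. The gene lncRNA:CR45388, also at a top-scoring peak, had 93.2, 102.3 and 69.2 CPM in the WT libraries and 238.1, 193.0 and 158.6 CPM in the lola[E76] libraries. It rose by 1.16 ± 0.17 (edgeR adjusted p = 0.000255), and in nerfin-1[159] clones it was at 182.2 ± 19.0 CPM. Its peak was 961 bp from an overlapping N1 peak of score 6.07, and equally far from an overlapping N2 peak.

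Among N2-only genes that fell, Rab26, a small GTPase of synaptic and secretory vesicles, had 37.8, 43.7 and 43.2 CPM in the WT libraries and 11.1, 9.91 and 3.35 CPM in the lola[E76] libraries. The groups did not overlap, and the difference was -2.35 ± 0.36 (edgeR adjusted p = 0.000303). Its peak at 3L:21316533-21318075 scored 1.02 and was 27841 bp from any N1 peak. The same peak lay within 1 kb of the Polycomb gene Pc. Pc had 27.55, 35.8 and 30.1 CPM in the WT libraries and 12.1, 27.58 and 21.4 CPM in the lola[E76] libraries. The ranges overlapped at their edge, and Pc was not called (-0.61 ± 0.28, edgeR adjusted p = 0.251).

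Other lower genes of the N2-only class that kept their calls were CG44247 and CG4133. CG44247 had 25.7, 28.7 and 24.8 CPM in the WT libraries and 7.26, 2.15 and 7.15 CPM in the lola[E76] libraries (-2.26 ± 0.39, edgeR adjusted p = 0.000998). It lies on 2R, as do the called genes ptc, Mef2, kn, tou and Mid1, and the limit on linked variants applies to all of them. CG4133 had 111.6, 97.7 and 88.9 CPM in the WT libraries and 53.2, 55.6 and 54.1 CPM in the lola[E76] libraries (-0.87 ± 0.19, edgeR adjusted p = 0.00625). Neither set of ranges overlapped, and the peaks scored 1.37 with a gap of 26274 bp and 1.56 with a gap of 200 bp.

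The other N2-only genes that the rule named lost their calls in some fits. CG6891 (1.70 ± 0.41) and ClpX, an ATPase of mitochondrial protein breakdown (1.03 ± 0.29), were higher. CG40498 on 2R (-1.08 ± 0.29), the shedding protease Tace (-1.05 ± 0.25) and CG46448 (-1.05 ± 0.28) were lower. These genes had edgeR adjusted p-values of 0.0114 to 0.0361. CG6891 lost its call without WT replicates 1 or 3 or lola[E76] replicate 2, and Tace without WT replicates 1 or 2. ClpX lost it without WT or lola[E76] replicates 1, 2 or 3, CG40498 without WT replicates 2 or 3 or lola[E76] replicates 1 or 2, and CG46448 without WT replicates 2 or 3 or lola[E76] replicates 2 or 3. Their peaks scored 1.10 to 1.56.

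**Figure D5:**
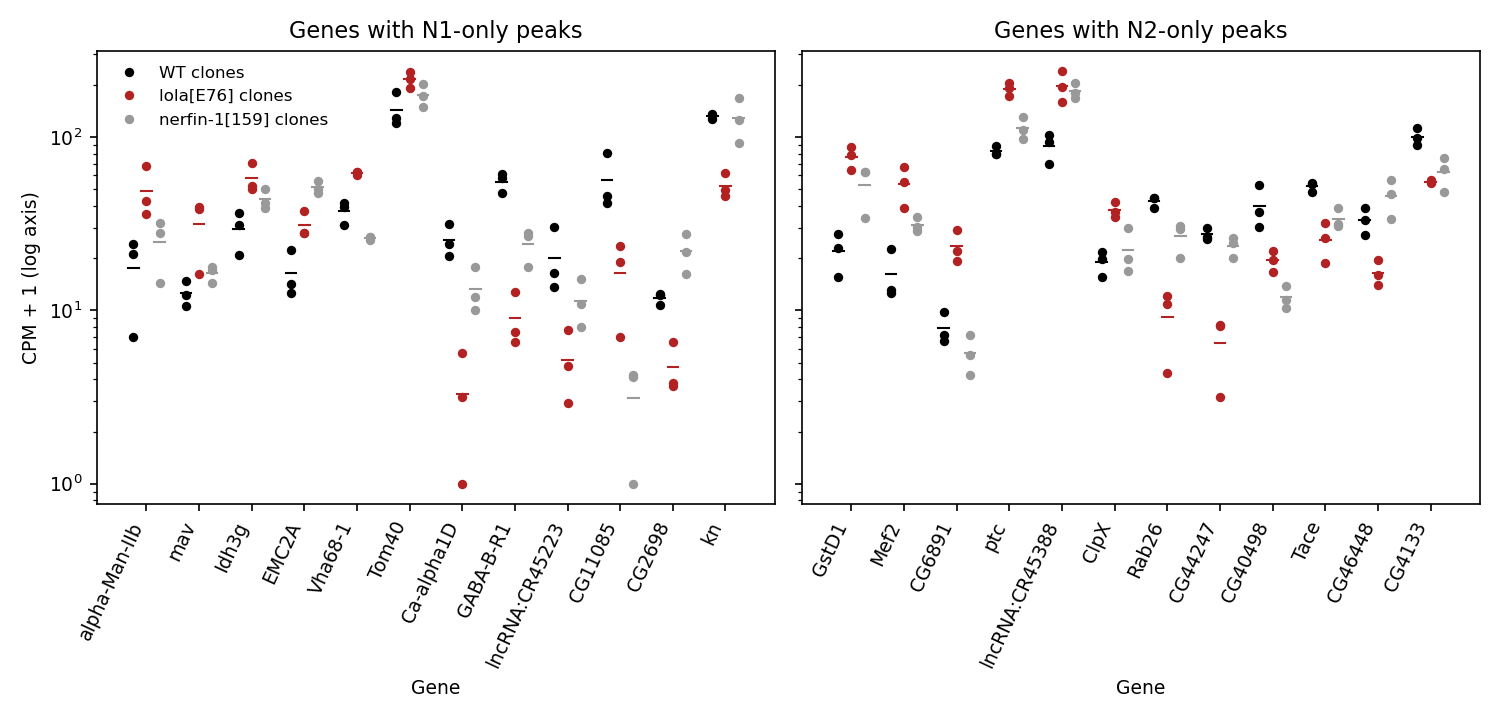
RNA level (CPM + 1, log axis) in each library of the named genes of the N1-only class (left) and N2-only class (right), with WT in black, lola[E76] in red and nerfin-1[159] in grey and a bar at each genotype mean. WT and lola[E76] points do not overlap in any gene shown, because the rule chose genes whose libraries are apart. The largest log2 difference is in Ca-alpha1D, with 0 to 4.69 CPM in lola[E76] clones.

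Lists of genes of known role were then set beside the peak classes. The 197 genes of the 15 lists that the gene table holds have a median length of 17.2 kb, against 1.70 kb over all genes, and 92 of them had a one-replicate peak. Of these 92, 75 had overlapping peaks as well and 17 rested on one-replicate peaks only. Another 62 had overlapping peaks alone, and 43 had none. Of the 87 tested list genes with a one-replicate peak 17 were called in edgeR's test (19.5%), 8 higher and 9 lower, against 34 of 176 tested list genes (19.3%) and 6.5% of all genes. The lists were chosen with earlier results of these data known. Shares of list genes called, here and below, are thus no result beside all genes.

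In the neuroblast list 2 of 17 genes rested on one-replicate peaks, both Sox factors. D (Dichaete) had an N1-only peak of score 2.15 (3L:14176860-14177514) and SoxN an N2-only peak of score 1.19 (2L:8821162-8825112). D was at 251.3 ± 10.2 CPM in WT clones and 247.4 ± 45.6 CPM with lola[E76], and SoxN at 961 ± 155 and 1182 ± 94.3 CPM (SD, n = 3), and neither was called. Of the 16 tested genes of this list 6 were called higher, beside 3.58% of all genes tested. Only 2 tested genes of the list were in a one-replicate class, too few for a contrast. In the Notch list 1 of 14 genes, the target Hey, rested on a one-replicate peak (2R:7996036-7999556, N1-only, score 1.73) and was not called (-0.62 ± 0.44).

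In the list of medulla temporal factors, which neuroblasts express in sequence, D and slp2 of 14 genes rested on one-replicate peaks. The 14 also include genes outside that sequence, such as Myc, which was matched by a synonym. The forkhead gene slp2 had an N1-only peak at 2L:3837526-3837967 (score 1.43) and an N2-only peak at 2L:3839207-3840950 (score 1.85), 1239 bp apart. Its level was 34.6, 24.8 and 28.6 CPM in the WT libraries and 15.7, 19.4 and 10.9 CPM in the lola[E76] libraries. The ranges were apart, but the call (-0.93 ± 0.26, edgeR adjusted p = 0.0386) was lost in every fit that left out a library except lola[E76] replicate 2. In nerfin-1[159] clones slp2 was at 56.6 ± 5.28 CPM (SD, n = 3).

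Of 22 medulla neuron identity genes 3 were in one-replicate classes, among them kn, described above, and Sox102F. Sox102F had an N1-only peak of score 2.55 on chromosome 4, 83175 bp from any N2 peak, and was not called (-0.40 ± 0.30).

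In the neuron function list, Syt1, the calcium sensor of synaptic vesicle release, and VGAT, the vesicular GABA transporter, were in the N1-only class, among 20 genes. Syt1 had N1-only peaks of score 1.12 and 1.20 and was at 222.4 ± 29.1 CPM in WT clones and 186 ± 43.2 CPM with lola[E76]. VGAT had an N1-only peak of score 1.71 and was at 25.2 ± 5.99 and 19.4 ± 8.21 CPM (SD, n = 3). Neither was called. Of the 20 genes of the list 4 were called lower, beside 2.91% of all genes tested, and 2 genes are too few for a contrast.

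Chromatin regulators had 3 of 14 genes in one-replicate classes. These were brm, the ATPase of the SWI/SNF remodeller (N1-only, score 1.81), and the Polycomb group genes Pc and Su(z)12 (N2-only, scores 1.02 and 0.76). None was called, with log2 differences of -0.20 ± 0.12 for brm and 0.17 ± 0.22 for Su(z)12. The ecdysone response list had Hr3, a nuclear receptor (N1-only, score 1.74), among 10 genes, at 3 to 9 counts in the WT libraries and not called.

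Markers of other cells that a brain sample could hold were counted in the same way, beside 11.8% of all genes that were in a one-replicate class. Of 8 haemocyte and fat body genes 2 were in such a class (25%) and of 13 eye disc and neuroepithelium genes 2 (15.4%). Among the haemocyte and fat body genes, the GATA factor gene srp (score 1.20) and the storage protein gene Lsp2 (score 1.00) were N2-only, and neither had enough RNA counts to be tested. Among the eye disc and neuroepithelium genes, the photoreceptor factor gene gl (score 1.09) and the proneural factor gene sens (score 1.01) were N2-only. Of these gl was not called (0.31 ± 0.80), and sens was not tested. No gene of the lists of early larval timers, ganglion mother cells and commitment, axon guidance, cell cycle, glia or Hox genes rested on one-replicate peaks only.

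Several list genes with overlapping peaks carried high-scoring one-replicate peaks as well. The highest such N1-only scores, beside lola, dpn and elav, were 4.12 at neur, a ubiquitin ligase of Notch ligands, 4.00 at the axon guidance cue gene NetB, 3.95 at the cell cycle factor gene E2f1 and 3.89 at the midline repellent gene sli. They were followed by 3.82 at the Netrin receptor gene unc-5 and 3.78 at L (Lobe). None of these 6 genes was called. The highest N2-only scores were 3.33 at nrv2, a sodium pump subunit of glia, 2.81 at CycE, the cyclin of S phase entry, and 2.79 at Myc, and none of these was called. Of the 73 tested list genes with both kinds of peak 15 were called (20.5%), beside 15 of 60 (25%) with overlapping peaks only.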

How the data were processed

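The authors deposited raw counts per gene for 9 RNA libraries. Subread, featureCounts and limma are named in the submitters' processing notes, with no version or role. Libraries were made with QuantSeq, which reads 3′ ends, per the labels' protocols. For each of 2 Lola.N replicates the authors deposited a peak list with a score and an FDR per peak, made against Dam alone on kernel-density normalised GATC fragments with an FDR of 0.01 as the threshold, per the file names. The sources used here do not name the caller, the score scale, the genome build or the annotation. The Dam-only samples were not analysed here, and no sequence was used.

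Peaks were intersected at 1 shared base and assigned to genes of a Release 6 plus ISO1 MT gene table within 1 kb. That table was used for names and neighbours only. The last peak on 3R ended at 32.08 Mb in both lists and the last gene of the table at 32.07 Mb. Of 17633 genes in the counts 17537 matched it, and of 7451 tested genes 7442 did. Of 206 list entries 200 matched by symbol, 3 by synonym and 3 not at all. Replicate numbers did not pair the RNA libraries (deviations from genotype means correlated at -0.06 to 0.02), and no library duplicated another, with a chi-square per degree of freedom of 10.3 or more within groups.

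Counts were filtered with filterByExpr and scaled by TMM in edgeR 4.0.16 (R 4.3.3), and all 9 libraries entered a quasi-likelihood fit of genotype, tested two-sided. The peak and RNA steps were tested on simulated data. Genes named were elav, pros, dpn, lola, nerfin-1, Imp, Syp and chinmo, and, in each one-replicate class, the 6 called genes with the largest difference each way among those with a mean log2 CPM of at least 3 and libraries apart. Up to 3 one-replicate genes per list were added. A few items that these rules name are not reported here. Regions named were the 8 of highest score, the 3 widest and the 3 closest to the other list, per replicate. The members, lists and rules were chosen with earlier results of these data known. Alternatives were DESeq2 1.42.0, RLE scaling, no filter, a replicate block, leaving out each library, other windows, overlaps and score thresholds. Other tools were scipy 1.17.1, pandas 2.3.3, numpy 2.4.6 and matplotlib 3.10.9 in Python 3.11.15.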

Additional observations from a re-analysis of the deposited data

How the results depend on the processing

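Of 166 alternative values of the counts of called genes and of peaks, 132 were within 1.5 times the reported count and 34 were not. The number of one-replicate peaks was 1535 (N1) and 1405 (N2) when an overlap needed 50% of the shorter peak, 1115 and 968 when peaks within 1 kb of each other counted as shared, and 1410 and 1281 when a single shared base did not count, an alternative chosen after seeing the data. With only peaks at or above the median score of their list it was 593 of 2351 (25.2%) and 527 of 2285 (23.1%). Since partners under the median were dropped too, the genes of each class then changed: 36 of 323 N1-only genes (11.1%) and 36 of 247 N2-only genes (14.6%) were called, 19 and 23 of them higher, and 7 of 21 genes with both kinds. That class also had 7 called with gene bodies only and 7 with peaks within 1 kb counted as shared. Higher calls of the N1-only class numbered 18 with no filter and 18 with DESeq2. The cause was not tested.

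Leaving out each library in turn gave 315 to 497 called genes in all, 181 to 274 higher and 134 to 223 lower. In the N1-only class it gave 18 to 34 called, 5 to 13 higher and 13 to 22 lower. In the N2-only class it gave 20 to 32 called, 9 to 16 higher and 8 to 17 lower, and with both kinds 7 to 10. These fits have fewer samples. With a replicate block 443 genes were called in all, 27 in the N1-only and 28 in the N2-only class, and CG11085, EMC2A, Vha68-1, ClpX, CG40498 and slp2 were not called; the numbers do not pair the libraries. DESeq2 called 621, no filter 640 and RLE scaling 494, against 484. Of 73 tested genes that the rules or regions name 35 were called, many of them because part of the naming rule took called genes only. Their share is therefore no result beside the 6.5% of all genes tested. Of the 35, 14 kept the call under every alternative and 21 lost it in at least 1, and no called difference changed its sign. Of 38 not called, 4 were called in an alternative, pros among them. The planned count of sequence motifs in promoters was not run. Depth limits low genes, since 3 counts equal 0.577 to 0.866 CPM.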
